A study of Mus musculus with 16 samples.

Results

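The liver expression of 10 acute-phase plasma protein genes was followed through 16 mouse liver libraries: the serum amyloid A genes Saa1, Saa2, Saa3 and Saa4, the orosomucoid genes Orm1, Orm2 and Orm3, and Lcn2 (lipocalin 2), Hp (haptoglobin) and Itih4 (inter-alpha-trypsin inhibitor heavy chain 4). They were chosen by symbol, and each has 1 row among the 24010 rows of the deposited expression table, so 10 of 10 were found. All mice were C57BL/6. Hydrodynamic tail vein injection, in which a large volume enters the vein quickly and carries plasmid into hepatocytes, had delivered an EEV plasmid that either encoded human MANF, a small secreted stress-response protein, or was empty. The groups were old MANF and old control mice (23 months), and young MANF and young control mice (5 months), with 4 animals and 4 libraries each, taken 5 weeks after the injection. Every group, the controls included, had therefore been injected, and no uninjected liver was analysed here. The promoter of the MANF plasmid and the share of hepatocytes that took it up are not given in the sources used here.

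The acute phase is the change in what the liver secretes after infection or injury elsewhere in the body. Interleukin-1 and tumour necrosis factor act on hepatocytes through NF-kB and C/EBP factors, and interleukin-6 acts through the receptor chain gp130 (Il6st) and STAT3. Their targets range from proteins that are abundant at all times and rise modestly, such as haptoglobin, to proteins that are nearly silent at rest and can rise by orders of magnitude, such as serum amyloid A.

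Levels are in RPKM (reads divided by gene length in kilobases and by library size), as the authors deposited them. The whole reads behind the values could be recovered, and numbered 11.8 to 16.6 M per library in listed genes. The library size that divides the reads was 18.3 to 26.1 M. The 10 genes held 0.531% to 1.69% of the reads in listed genes. Old control replicate 4 lay furthest from its group over all genes, with a root mean square log2 deviation of 0.553. Young MANF replicate 3 followed with 0.472, and the other 14 libraries lay between 0.241 and 0.369. Old control replicate 4 is therefore shown apart below, and values without it are given where a result rests on it. Hepatocyte markers (Alb, Apoa1, Ttr, Cps1, Ass1, Cyp2e1, Tat and Serpina1a, 8 of 8 detected) summed to 29902 RPKM or more in every library, so hepatocyte RNA was abundant in all of them. In a piece of whole liver, fewer cells of a type and less RNA per cell cannot be told apart.

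The genes lie in 2 clusters and 3 single loci (GRCm38, GENCODE M21). Saa3 (chr7:46711998-46715700), Saa4 (chr7:46727998-46732603), Saa1 (chr7:46740497-46742980) and Saa2 (chr7:46751790-46754313) span 42.3 kb, with Saa2 on the plus strand and the others on the minus strand. Orm1 (chr4:63344560-63348163), Orm3 (chr4:63356162-63359511) and Orm2 (chr4:63362449-63365878) follow each other on the plus strand over 21.3 kb. Lcn2 (chr2:32384633-32388252) and Hp (chr8:109575128-109579172) are on the minus strand and Itih4 (chr14:30886476-30902353) is on the plus strand. Paralogs in each cluster are similar enough that reads could be shared. Of all 50-base windows in the coding transcripts, 14.8% of Saa1, 13.3% of Saa2, 20.4% of Orm1 and 21.8% of Orm2 occurred unchanged in a paralog, against 1.78% of Saa3, 3.59% of Orm3 and 0% of Saa4. How reads that align to several genes were assigned is not given in the sources used here, so the split between Saa1 and Saa2 and between Orm1 and Orm2 is uncertain. The gene length behind the RPKM was 2478 bases for Saa1 and 2623 bases for Lcn2, while their longest annotated coding transcripts measure 609 and 915 bases. Levels of different genes are thus not compared closely here.

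Promoters of the 6 genes that varied most between libraries are printed because a C/EBP motif recurs in them. The windows, of 300 bases, run from 250 bases before to 50 bases after the start site in RefSeq (GRCm38.p6) and read 5′ to 3′ on the strand of the gene. Capitals mark each match to the C/EBP motif TTGCNNAA on either strand. The windows are chr7:46742931-46743230 (Saa1, minus strand), chr7:46751583-46751882 (Saa2, plus strand), chr7:46715627-46715926 (Saa3, minus strand), chr4:63362199-63362498 (Orm2, plus strand), chr4:63355908-63356207 (Orm3, plus strand) and chr2:32387690-32387989 (Lcn2, minus strand).
Saa1: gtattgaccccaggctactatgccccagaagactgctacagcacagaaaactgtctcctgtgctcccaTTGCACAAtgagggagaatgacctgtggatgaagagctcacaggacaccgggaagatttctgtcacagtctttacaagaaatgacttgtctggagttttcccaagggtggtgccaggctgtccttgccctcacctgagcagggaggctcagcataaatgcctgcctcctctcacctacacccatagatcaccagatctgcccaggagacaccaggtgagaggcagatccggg
Saa2: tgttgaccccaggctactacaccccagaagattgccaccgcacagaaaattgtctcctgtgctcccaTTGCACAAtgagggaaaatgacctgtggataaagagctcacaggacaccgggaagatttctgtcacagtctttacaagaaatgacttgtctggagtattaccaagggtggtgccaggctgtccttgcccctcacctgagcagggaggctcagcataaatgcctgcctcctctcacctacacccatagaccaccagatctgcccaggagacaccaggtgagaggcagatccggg
Saa3: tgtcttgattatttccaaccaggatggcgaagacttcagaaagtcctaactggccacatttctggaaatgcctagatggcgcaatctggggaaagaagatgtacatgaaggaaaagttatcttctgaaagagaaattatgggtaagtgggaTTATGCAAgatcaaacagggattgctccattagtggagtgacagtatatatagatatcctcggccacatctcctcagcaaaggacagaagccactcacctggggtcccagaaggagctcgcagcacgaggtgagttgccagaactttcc
Orm2: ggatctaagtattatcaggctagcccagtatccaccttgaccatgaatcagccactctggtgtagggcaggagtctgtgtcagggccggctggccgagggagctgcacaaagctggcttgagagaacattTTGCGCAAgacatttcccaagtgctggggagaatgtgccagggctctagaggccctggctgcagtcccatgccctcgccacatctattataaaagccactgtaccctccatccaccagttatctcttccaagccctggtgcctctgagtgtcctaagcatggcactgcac
Orm3: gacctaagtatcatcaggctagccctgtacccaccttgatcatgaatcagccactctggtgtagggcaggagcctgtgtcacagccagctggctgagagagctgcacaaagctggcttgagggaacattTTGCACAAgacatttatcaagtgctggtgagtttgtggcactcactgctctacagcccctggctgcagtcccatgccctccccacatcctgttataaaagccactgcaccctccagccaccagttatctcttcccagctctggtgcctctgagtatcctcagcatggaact
Lcn2: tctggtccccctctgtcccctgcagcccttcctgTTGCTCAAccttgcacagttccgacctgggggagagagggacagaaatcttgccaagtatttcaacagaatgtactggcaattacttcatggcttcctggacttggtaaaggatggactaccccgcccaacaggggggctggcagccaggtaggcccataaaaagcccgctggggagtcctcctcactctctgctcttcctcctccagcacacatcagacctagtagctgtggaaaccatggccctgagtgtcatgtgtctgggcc
A window was given for 8 of the 10 genes, all but Orm1 and Hp. The C/EBP motif occurred in 7 of these 8 windows, the 6 above and Saa4, and in 10.8% of all 27025 RefSeq promoter windows of the same length. In Saa4, the gene that varied least between libraries (2.66-fold), matches began at -245 and -52 from the start site. The motif was thus not limited to the genes that varied most. The motif stood close to the same place in each pair of paralogs, with its first base 182 and 183 bases before the start site in Saa1 and Saa2, and 120 and 121 bases before it in Orm2 and Orm3. The paralogs are not independent examples, because the Saa1 and Saa2 windows were identical at 287 of 301 aligned columns (95.35%) and the Orm2 and Orm3 windows at 86.23% of columns. The STAT motif TTCNNNGAA was found in the Itih4 window alone (8.47% of all windows), and the kappaB motif in none (4.35% of all windows). The motifs do not overlap in these windows. A match describes letters in the window and not binding, and its absence says nothing about the factor.

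Serum amyloid A1 and A2 are apolipoproteins of high-density lipoprotein and the precursors of amyloid A deposits. Both were lowest in young MANF livers and high in 4 libraries. Saa1 measured 37.2, 56.4, 44.1 and 38.5 RPKM in old MANF livers, 23.5, 34.2, 31.4 and 461 RPKM in old control livers, 14.9, 14.2, 8.03 and 24.6 RPKM in young MANF livers, and 152, 220, 25.2 and 166 RPKM in young control livers (replicates 1 to 4 throughout). The high libraries were thus 3 of 4 young controls and 1 of 4 old controls, at 152 RPKM or more, and the other 12 libraries lay at 56.4 RPKM or less. Saa2 measured 19.96, 26.9, 15.8 and 18.3 RPKM in old MANF livers, 10.5, 15.7, 14.3 and 220 RPKM in old control livers, 3.12, 4.37, 2.996 and 6.36 RPKM in young MANF livers, and 72.6, 115, 8.08 and 92.6 RPKM in young control livers. All young MANF values of both genes lay below all young control values and below all old MANF values. By group medians, Saa1 ranked young control (159 RPKM), old MANF (41.3 RPKM), old control (32.8 RPKM) and young MANF (14.6 RPKM), and each neighbouring pair in this order overlapped. The ratio of Saa1 to Saa2 lay between 1.796 and 3.12 outside young MANF livers and between 2.68 and 4.79 in young MANF livers, which overlap.

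**Figure D1:**
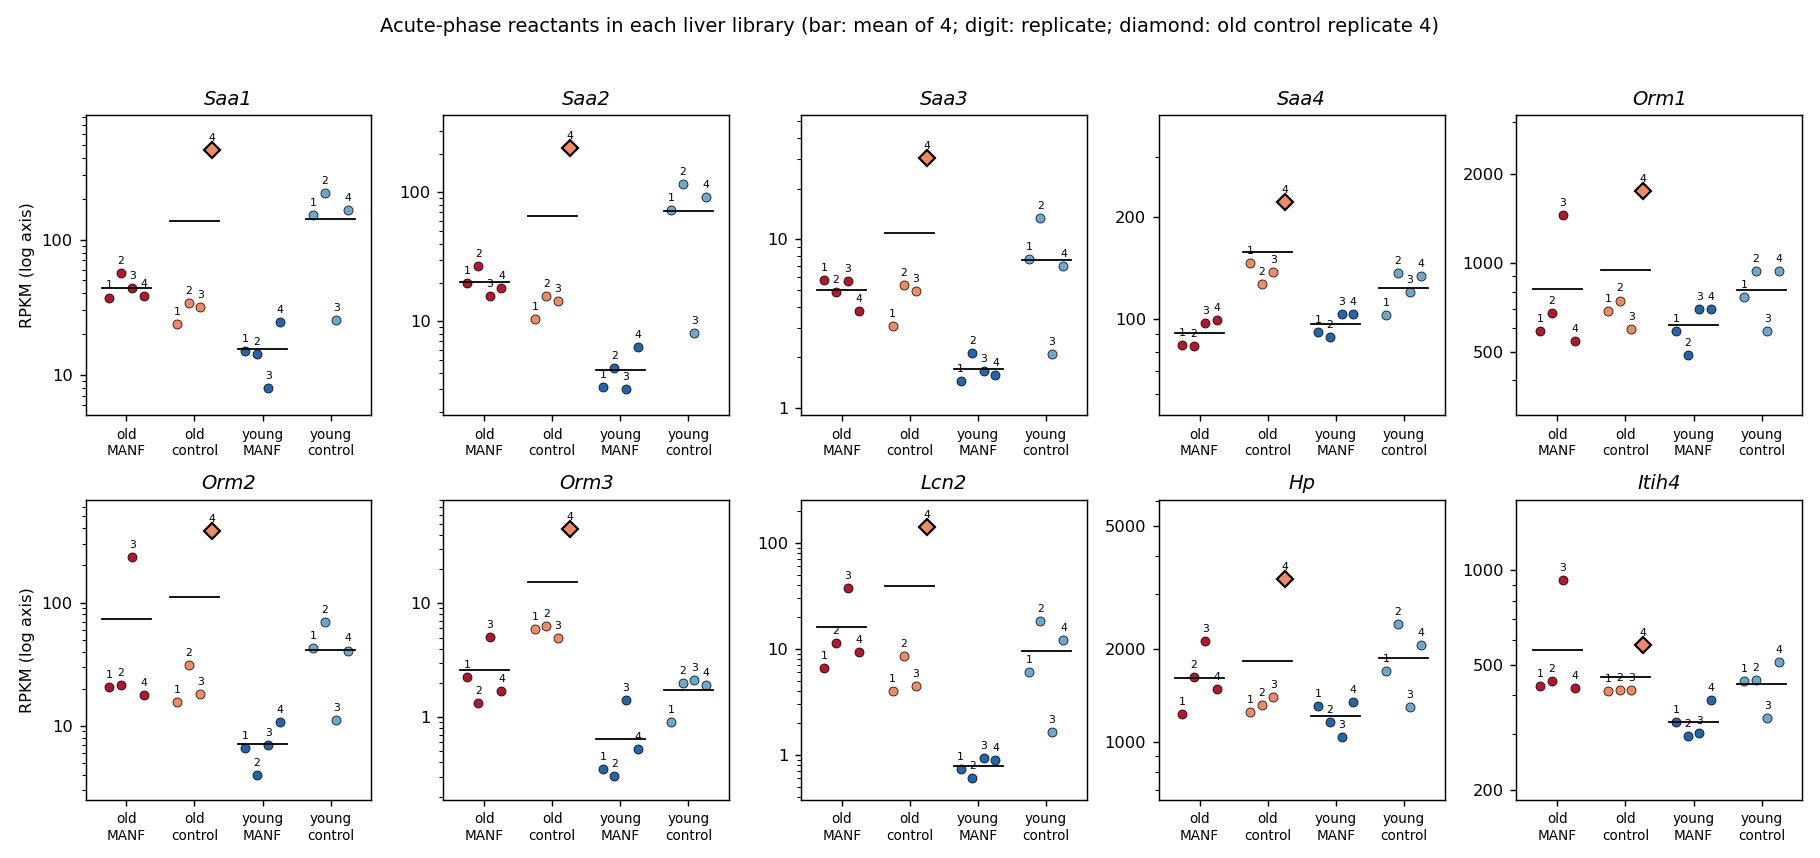
RPKM (log axis) of each of the 10 genes in each library, with the groups on the horizontal axis in the order old MANF, old control, young MANF and young control; points are libraries labelled by replicate, bars are means of 4 and the diamond is old control replicate 4. Old control replicate 4 is the highest of all 16 libraries for 9 of the 10 genes, and a young MANF library is the lowest for 9 of the 10.

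Saa3, which in the mouse is made by macrophages and fat tissue as well as by hepatocytes, was far lower and followed the same pattern. It measured 5.72, 4.90, 5.68 and 3.75 RPKM in old MANF livers, 3.05, 5.39, 4.97 and 30.2 RPKM in old control livers, 1.45, 2.12, 1.67 and 1.57 RPKM in young MANF livers, and 7.65, 13.4, 2.10 and 6.94 RPKM in young control livers. Young MANF and young control values overlapped only through young control replicate 3 (2.10 RPKM) and young MANF replicate 2 (2.12 RPKM). Saa4, the constitutive member of the family, behaved differently. It measured 83.9, 83.1, 97.1 and 99.0 RPKM in old MANF livers, 146, 127, 137 and 221 RPKM in old control livers, 91.2, 88.3, 103 and 103 RPKM in young MANF livers, and 103, 136, 120 and 133 RPKM in young control livers. Its highest value was 2.66 times its lowest, against 57.4 times for Saa1 and 73.4 times for Saa2, and every old MANF liver lay below every old control liver.

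Orosomucoids, or alpha-1-acid glycoproteins, bind basic and neutral small molecules in plasma. Orm1 was expressed strongly in all libraries, at 589, 678, 1454 and 543 RPKM in old MANF livers, 689, 746, 596 and 1756 RPKM in old control livers, 588, 488, 698 and 697 RPKM in young MANF livers, and 764, 938, 587 and 939 RPKM in young control livers. Only old MANF replicate 3 and old control replicate 4 exceeded 939 RPKM. Orm2 varied far more, at 20.5, 21.6, 235 and 17.9 RPKM in old MANF livers, 15.5, 30.9, 18.1 and 378 RPKM in old control livers, 6.62, 4.02, 6.93 and 10.7 RPKM in young MANF livers, and 42.8, 69.1, 11.1 and 40.8 RPKM in young control livers. Young MANF livers lay below every other library, the nearest being young control replicate 3. How many of all tested genes do so was not counted. Orm3 was the least abundant gene, with 5 reads in its lowest library, and it differed from its paralogs in which group was high. It measured 2.26, 1.33, 5.09 and 1.69 RPKM in old MANF livers, 5.88, 6.27, 4.98 and 44.96 RPKM in old control livers, 0.347, 0.300, 1.40 and 0.519 RPKM in young MANF livers, and 0.911, 1.97, 2.11 and 1.93 RPKM in young control livers. Old control livers were above all young control livers, while old MANF livers overlapped with both old control and young control livers. Orm2 levels were 2.63 to 8.41 times those of Orm3 in old control livers and 5.27 to 46.9 times those of Orm3 in young control livers.

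Lcn2 encodes a lipocalin that captures the iron-binding siderophores of bacteria. It is made by hepatocytes in the acute phase and stored in neutrophil granules. It had the widest range of the 10 genes, 234-fold, and measured 6.53, 11.3, 37.2 and 9.26 RPKM in old MANF livers, 3.97, 8.56, 4.44 and 141 RPKM in old control livers, 0.730, 0.602, 0.926 and 0.887 RPKM in young MANF livers, and 6.01, 18.1, 1.63 and 12.1 RPKM in young control livers. All 4 young MANF livers were below all 12 others. The share of all tested genes that do so was not counted. Against young controls alone, 6.59% of all tested genes were lower in every young MANF library. Hp encodes the scavenger of free haemoglobin and measured 1230, 1621, 2118 and 1476 RPKM in old MANF livers, 1246, 1315, 1394 and 3367 RPKM in old control livers, 1307, 1155, 1039 and 1346 RPKM in young MANF livers, and 1692, 2404, 1298 and 2049 RPKM in young control livers. Here each pair of groups overlapped. Itih4, a secreted glycoprotein of the inter-alpha-trypsin inhibitor family, measured 429, 446, 931 and 422 RPKM in old MANF livers, 412, 414, 417 and 580 RPKM in old control livers, 328, 297, 303 and 388 RPKM in young MANF livers, and 445, 446, 338 and 510 RPKM in young control livers. It was the only gene of the 10 with its maximum in old MANF replicate 3.

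In livers that had received the MANF plasmid, Lcn2 was higher in old than in young mice. Lcn2 averaged 16.1 ± 14.2 RPKM in old MANF and 0.786 ± 0.149 RPKM in young MANF livers (SD, n = 4 each). It was the only member called, with a log2 change of 3.37 (SE 0.91, limma adjusted p = 0.0409, higher in 4 of 4 libraries). Changes are on the log2(RPKM + 0.5) scale, come from a limma fit to all 10677 genes that passed a filter on low values, and are called at an adjusted p below 0.05. All 10 genes passed the filter. In this comparison 5.85% of all tested genes were called higher. Of the others, Itih4 (log2 0.68, adjusted p = 0.0652), Saa2 (2.16, adjusted p = 0.0970), Orm2 (2.39, adjusted p = 0.0995), Orm3 (1.39, adjusted p = 0.1001) and Saa3 (1.32, adjusted p = 0.109) had an unadjusted p below 0.05 in limma. The change was above 0 for 9 of 10 genes, with a median of 1.35, against a median of 0.18 over all tested genes. The exception was Saa4 (log2 -0.09, 95% interval -0.40 to 0.23). Old MANF values lay above young MANF values in every library for 6 genes, Saa1, Saa2, Saa3, Orm2, Lcn2 and Itih4, a pattern that 22.3% of all tested genes showed.

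The number of calls in this comparison was not stable. Old control replicate 4 is no part of it, but the groups share 1 estimate of the spread, and without that library limma called 7 members higher (15.7% of all tested genes). These were Saa1 (adjusted p = 0.0461), Saa2 (0.0214), Saa3 (0.0218), Orm2 (0.0304), Orm3 (0.0103), Lcn2 (0.0015) and Itih4 (0.0396), with the same log2 changes. With only the 2 MANF groups in the fit, 5 members were called higher, as were 9.36% of all tested genes. In the other direction, the call of Lcn2 was lost without any 1 of the 8 MANF libraries except young MANF replicate 4, and without young control replicate 4, with limma adjusted p between 0.0519 and 0.0908. Without old MANF replicate 3 its log2 change was 2.87 (adjusted p = 0.0908), and that of Orm2 was 1.51 in place of 2.39. Shifting all libraries to a common median took 0.22 off every log2 change of this comparison and also ended the call (Lcn2 3.15, adjusted p = 0.0618).

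In control livers no member was called between old and young mice by limma, where 1.25% of all tested genes were called in either direction. Saa4 and Orm3 had an unadjusted p below 0.05. Orm3 came nearest, with 15.5 ± 19.6 RPKM in old control and 1.73 ± 0.551 RPKM in young control livers (log2 2.23, SE 0.55, adjusted p = 0.0609). It was the only gene with every old control library above every young control library, which 8.13% of all tested genes showed. Without old control replicate 4 the Orm3 change was 1.51 (adjusted p = 0.0546), and without old MANF replicate 3 it was called (2.23, adjusted p = 0.0427). The median over the 10 genes was 0.14, against 0.05 over all tested genes, but it was -0.42 without old control replicate 4, so it has no stable direction. Saa1 and Saa2 leaned the other way, with log2 changes of -0.89 (95% interval -2.56 to 0.79) and -0.89 (-2.68 to 0.91), and without old control replicate 4 these became -1.87 (limma adjusted p = 0.116) and -1.89 (adjusted p = 0.175). The changes of Saa3, Orm1, Orm2, Lcn2 and Itih4 turned from above to below 0 when that 1 library was left out.

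**Figure D2:**
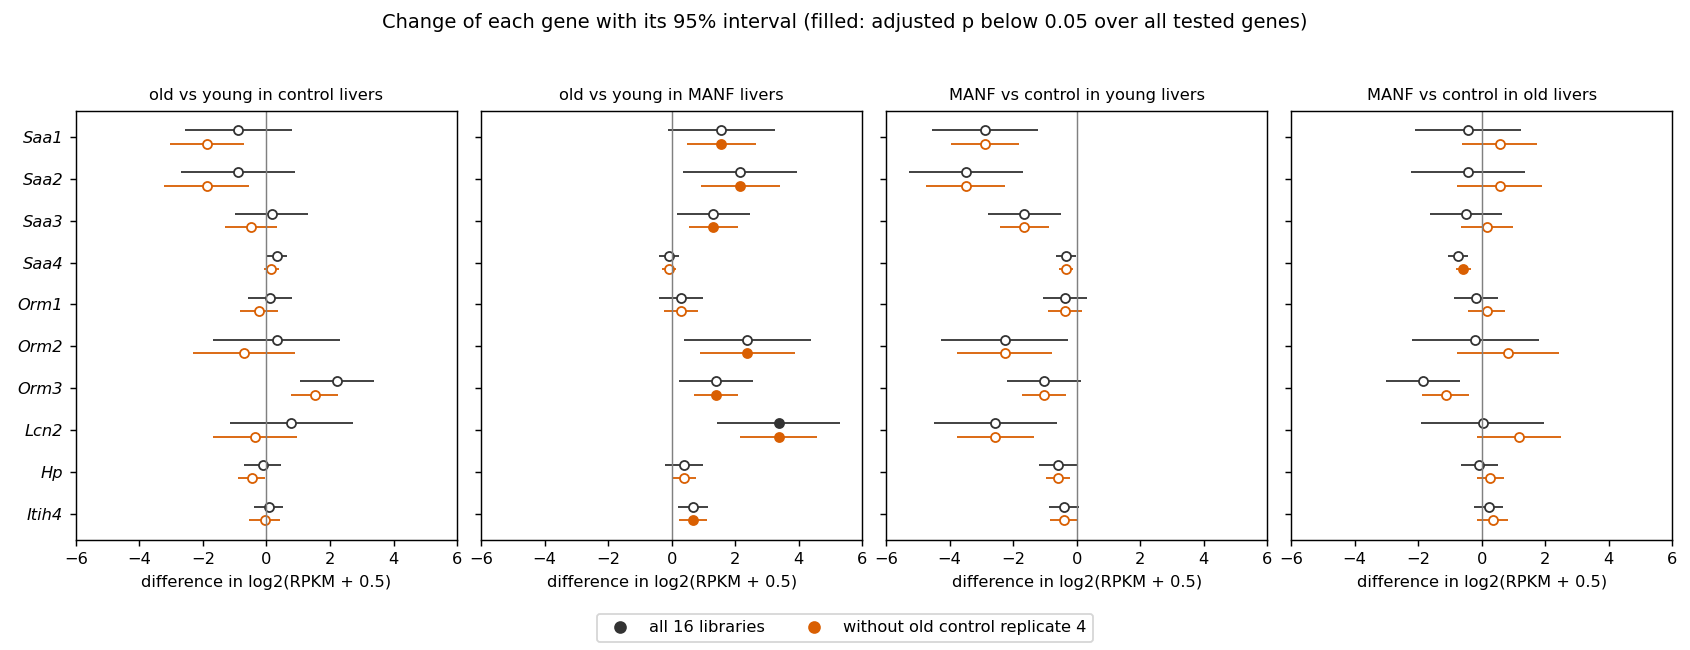
Difference in log2(RPKM + 0.5) of each gene in 4 comparisons, with 95% intervals, for all 16 libraries (dark) and without old control replicate 4 (orange); filled points have a limma adjusted p below 0.05. Lcn2 is the only filled point with all libraries, and 7 genes between old and young MANF livers and Saa4 between old MANF and old control livers are filled without old control replicate 4.

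Between young MANF and young control livers no member was called, although the change was below 0 for all 10. Limma called 0.0187% of all tested genes in this comparison (2 of 10677). Saa2 averaged 4.21 ± 1.56 RPKM in young MANF and 72.2 ± 46.2 RPKM in young control livers (SD, n = 4 each), and the log2 change was -3.49 (SE 0.84, limma adjusted p = 0.150). Saa1 averaged 15.4 ± 6.83 RPKM in young MANF and 141 ± 82.5 RPKM in young control livers (log2 -2.88, limma adjusted p = 0.200). The changes of Lcn2 (-2.56), Orm2 (-2.27), Saa3 (-1.65), Hp (-0.59) and Saa4 (-0.35) also had an unadjusted p below 0.05 in limma. The median change was -1.33, against -0.10 over all tested genes. Young MANF lay below young control in every library for 4 genes, Saa1, Saa2, Orm2 and Lcn2, and for 6.59% of all tested genes.

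Young control replicate 3 was below the other 3 young controls for 8 of the 10 genes, as for 42.1% of all tested genes; the exceptions were Saa4, where it lay inside their range, and Orm3, where it was the highest. In the difference from the other 3 young controls, Saa2 had rank 1 from the lowest of all 10677 tested genes in that library, Saa1 rank 2, Lcn2 rank 3 and Orm2 rank 7. Without it the Saa2 change between young MANF and young control livers was -4.35 (limma adjusted p = 0.0834) and the Saa1 change -3.58 (adjusted p = 0.203). Without old control replicate 4, which is in neither group, the adjusted p was 0.0715 for Saa2 and 0.0721 for Saa1. No member was called in this comparison under any alternative tried.

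In old mice Saa4 averaged 90.8 ± 8.44 RPKM in old MANF and 158 ± 43.0 RPKM in old control livers (SD, n = 4 each). Limma did not call the difference with all libraries (log2 -0.76, SE 0.15, unadjusted p = 0.0001, adjusted p = 0.0662) and called no other member, against 0.103% of all tested genes. It called Saa4 without old control replicate 4 (log2 -0.59, adjusted p = 0.0275), when 0.309% of all tested genes were called lower. Saa4 was the only gene with every old MANF library below every old control library, which 1.84% of all tested genes showed. Orm3 had a log2 change of -1.86 (limma adjusted p = 0.193), and -1.14 without old control replicate 4 (adjusted p = 0.106). The 2 old groups otherwise could not be ordered. The changes of Saa1 (-0.43), Saa2 (-0.44), Saa3 (-0.50), Orm1 (-0.19), Orm2 (-0.20) and Hp (-0.08) all turned positive without old control replicate 4. In those 7 libraries Saa1, Saa2 and Itih4 were higher in every old MANF than in every old control liver, as were 16.8% of all tested genes.

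Averaged over both ages, Saa4 was lower with MANF (log2 -0.55, SE 0.10, limma adjusted p = 0.0174), and 0.702% of all tested genes were called lower. It kept its call in each run without 1 library (log2 -0.47 without old control replicate 4), with adjusted p of 0.0473 or less. Without old control replicate 4, when 0.721% of all tested genes were called lower, Orm3 was called too (-1.08, adjusted p = 0.0362), and without young control replicate 3 Saa2 was (-2.40, adjusted p = 0.0428, against -1.97 and 0.136 with all libraries). Averaged over both plasmids, Orm3 (log2 1.81, SE 0.39, adjusted p = 0.0086) and Lcn2 (2.08, SE 0.64, adjusted p = 0.0399) were higher in old livers by limma, as were 14.1% of all tested genes. Without old control replicate 4 the Orm3 average was 1.45 (adjusted p = 0.0015) and the Lcn2 average 1.5004 (adjusted p = 0.0276). Lcn2 lost its call in 9 of the 16 runs without 1 library, with adjusted p up to 0.0800, and Orm3 kept it in all 16. These averages share libraries with the comparisons above and are not further evidence. Whether the MANF change differed between the ages was tested as an interaction, in which limma called 0 members and 0% of all tested genes, with 894 genes at an unadjusted p below 0.05. The interaction was 3.05 for Saa2 (95% interval 0.51 to 5.59, unadjusted p = 0.0215, adjusted p = 0.594), 2.45 for Saa1, 2.59 for Lcn2 and 2.06 for Orm2. Without old control replicate 4 it was 4.05 for Saa2, 3.44 for Saa1 and 3.74 for Lcn2, with an adjusted p of 0.0872 each, and 3.11 for Orm2 (adjusted p = 0.168).

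The libraries that stood highest did not raise the same genes. In old control replicate 4, Lcn2 was 24.9 times the mean of the other 3 old controls, Orm2 17.6 times, Saa2 16.3 times and Saa1 15.5 times. Ranked by the difference in log2(RPKM + 0.5) from the other 3, Lcn2 had rank 1 of 10677 tested genes in that library, Orm2 rank 4, Saa2 rank 9 and Saa1 rank 10. Orm3 (7.87 times) and Saa3 (6.75 times) followed, then Orm1 (2.59 times), Hp (2.55 times), Saa4 (1.62 times) and Itih4 (1.40 times), so all 10 were above the other 3, as were 53.1% of all tested genes. In old MANF replicate 3, Orm2 was 11.7 times the mean of the other 3 old MANF livers and had rank 3 of 10677 genes. Lcn2 was 4.11 times, Orm3 2.89 times, Orm1 2.41 times, Itih4 2.15 times and Hp 1.47 times that mean. In the same library Saa1, Saa3 and Saa4 lay inside the range of the others (for Saa1 44.1 RPKM against 37.2 to 56.4 RPKM) and Saa2 lay below it (0.727 times their mean). The orosomucoids, Lcn2, Hp and Itih4 were thus high in both libraries, and the serum amyloid A genes in old control replicate 4 alone.

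**Figure D3:**
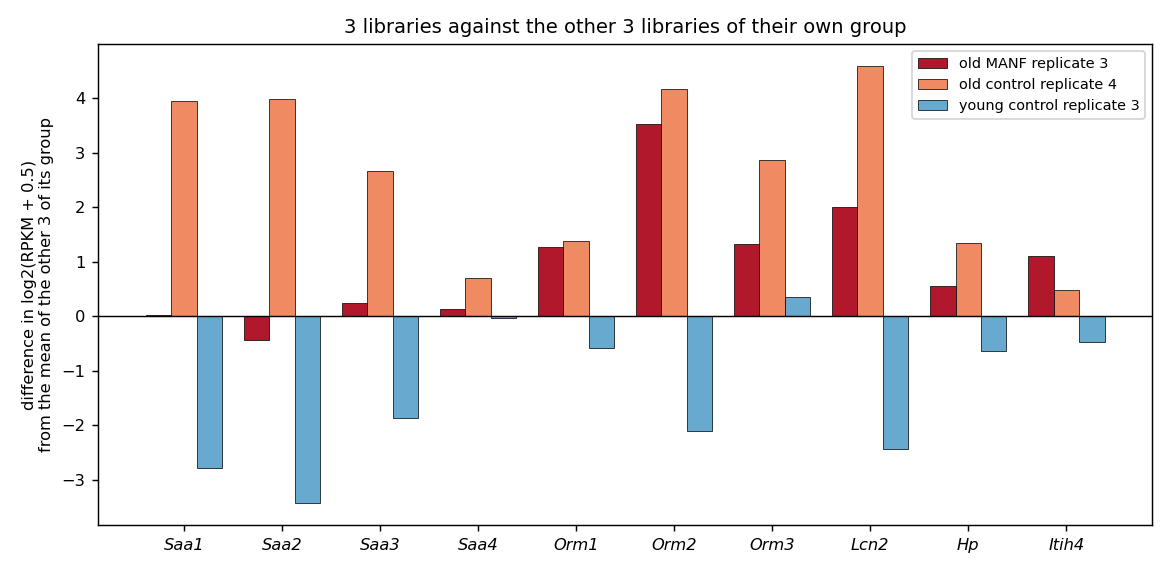
Difference in log2(RPKM + 0.5) of each gene between 1 library and the mean of the other 3 of its group, for old MANF replicate 3, old control replicate 4 and young control replicate 3. Orm2 stands 3.52 and 4.17 above its group in the first and second of these, while Saa1 stands at 0.03 and 3.95.

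**Figure D4:**
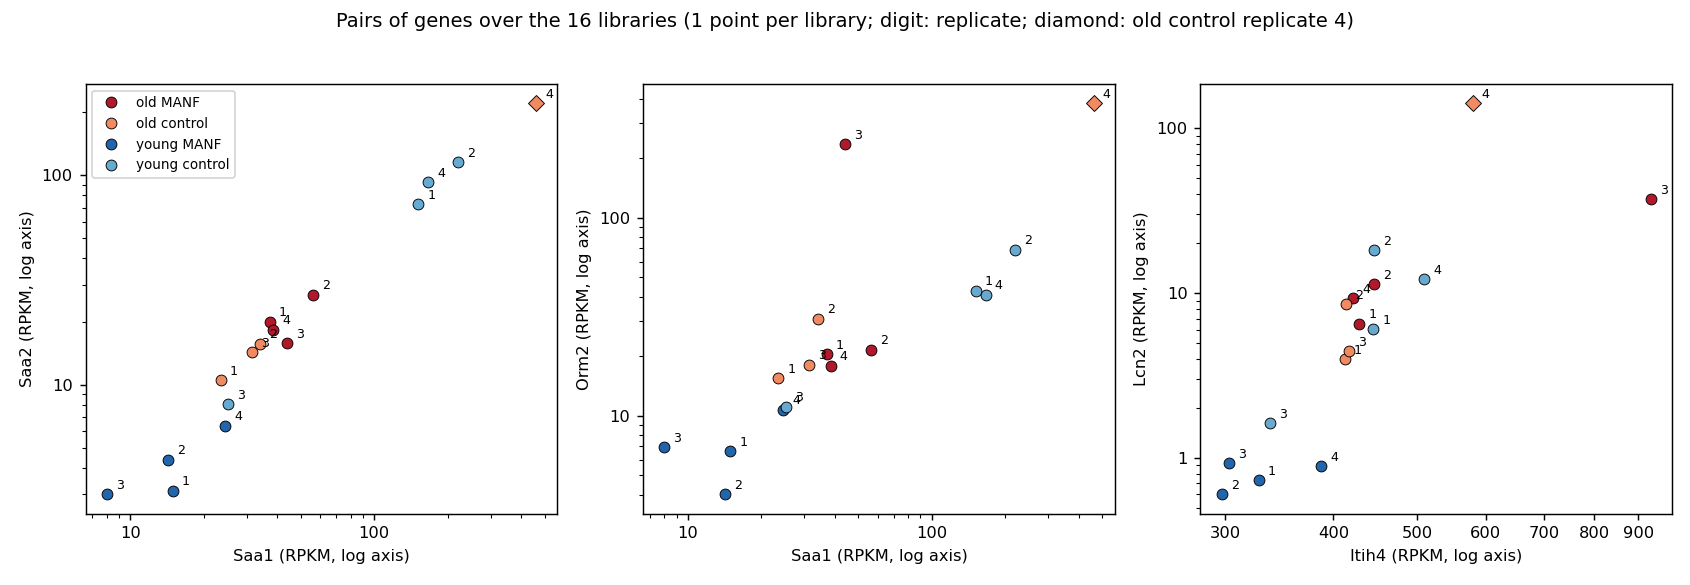
RPKM of Saa2 against Saa1, Orm2 against Saa1 and Lcn2 against Itih4, with 1 point per library on log axes. Saa1 and Saa2 keep together in all libraries, and old MANF replicate 3 lies off the others for Orm2 (235 RPKM at a Saa1 of 44.1 RPKM).

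Other liver genes known to rise in the acute phase were mostly high in the same libraries. Of the 29 tested genes of that list, 22 were above the other 3 old MANF livers in old MANF replicate 3 (75.9%, against 29.5% of all tested genes) and 26 were above the other 3 old controls in old control replicate 4 (89.7%, against 53.1%). The median log2 difference of the list was 0.59 in old MANF replicate 3 and 0.97 in old control replicate 4. In young control replicate 3, 19 of the 29 were below the other 3 young controls (65.5%, against 42.1%). The genes named next were picked after their values were seen. Apcs, serum amyloid P, measured 347 RPKM in old MANF replicate 3 against 75.6 to 99.1 RPKM in the other old MANF livers, and the fibrinogen chain gene Fgb measured 1582 RPKM against 667 to 856 RPKM. Lrg1, a leucine-rich glycoprotein, measured 403 RPKM there against 83.2 to 125 RPKM, and complement C3 measured 2372 RPKM against 915 to 1008 RPKM. For these picked genes the ratios were smaller in old control replicate 4, with Apcs at 129 RPKM against 45.4 to 58.3 RPKM in the other old controls and C3 at 1390 RPKM against 789 to 823 RPKM. Of the 16 plasma protein genes that fall in the acute phase, 6 were below and 6 above the other 3 in old MANF replicate 3. That is 37.5% each way, against 28.3% of all tested genes below and 29.5% above. In old control replicate 4, 5 were below and 5 above, 31.25% each way, against 16.6% of all tested genes below and 53.1% above.

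The ligands were scarce in these livers. Il6 was listed at 0.0387 RPKM or less in every library, which at this depth is a few reads. Tnf measured 0.179 to 0.308 RPKM in old MANF livers, 0.115 to 2.18 RPKM in old control livers with the top value in replicate 4, 0 to 0.0734 RPKM in young MANF livers, and 0.0237 to 0.166 RPKM in young control livers. Il1b measured 1.10 to 2.21 RPKM in old MANF, 1.03 to 4.70 RPKM in old control, 0.241 to 1.53 RPKM in young MANF and 0.365 to 1.54 RPKM in young control livers. Of the 3 tested ligand genes, limma called none in any of the 4 comparisons between groups. Without old control replicate 4 it called 1 between old and young MANF livers, when 15.7% of all tested genes were called higher.

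A few receptors and transcription factors were called between old and young MANF livers, with small changes. Stat3, the factor below gp130, averaged 11.6 ± 1.99 RPKM in old MANF and 6.64 ± 0.828 RPKM in young MANF livers (log2 0.76, limma adjusted p = 0.0249). Il6st, gp130 itself, averaged 11.8 ± 1.41 RPKM in old MANF and 7.79 ± 1.51 RPKM in young MANF livers (log2 0.58, adjusted p = 0.0195). Il10rb (0.75) and Il17ra (0.51) were also called higher and Lifr (-0.82) lower, so limma called 4 of 16 tested receptor genes and, with Cebpg (0.48), 2 of 15 factor genes, against 6.57% of all tested genes in either direction. The counts, again in either direction, were 6 receptor and 7 factor genes without old control replicate 4. Of all tested genes 15.7% were then called higher (5.85% with all libraries), a share that leaves out calls lower. Il6ra (0.28, adjusted p = 0.464), Cebpb (-0.23, adjusted p = 0.431), Socs3 (0.65, adjusted p = 0.222), the feedback inhibitor of STAT3, and Nfkbia (0.25, adjusted p = 0.384), that of NF-kB, were not called. Cebpd stayed at 0.0602 RPKM or less in all libraries. Socs3 was high in the 2 libraries with the most Orm2, at 4.87 RPKM in old MANF replicate 3 against 1.17 to 2.10 RPKM in the other old MANF livers, and at 4.26 RPKM in old control replicate 4 against 0.846 to 1.70 RPKM in the other old controls. Cebpb was at 4.79 RPKM in old MANF replicate 3, the lowest of its group. Socs3 does not stand for its list, since in old MANF replicate 3 only 2 of the 9 tested feedback genes were above the other 3 (22.2%, against 29.5% of all tested genes) and 5 were below, while in old control replicate 4 8 of the 9 were above (88.9%, against 53.1%).

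**Figure D5:**
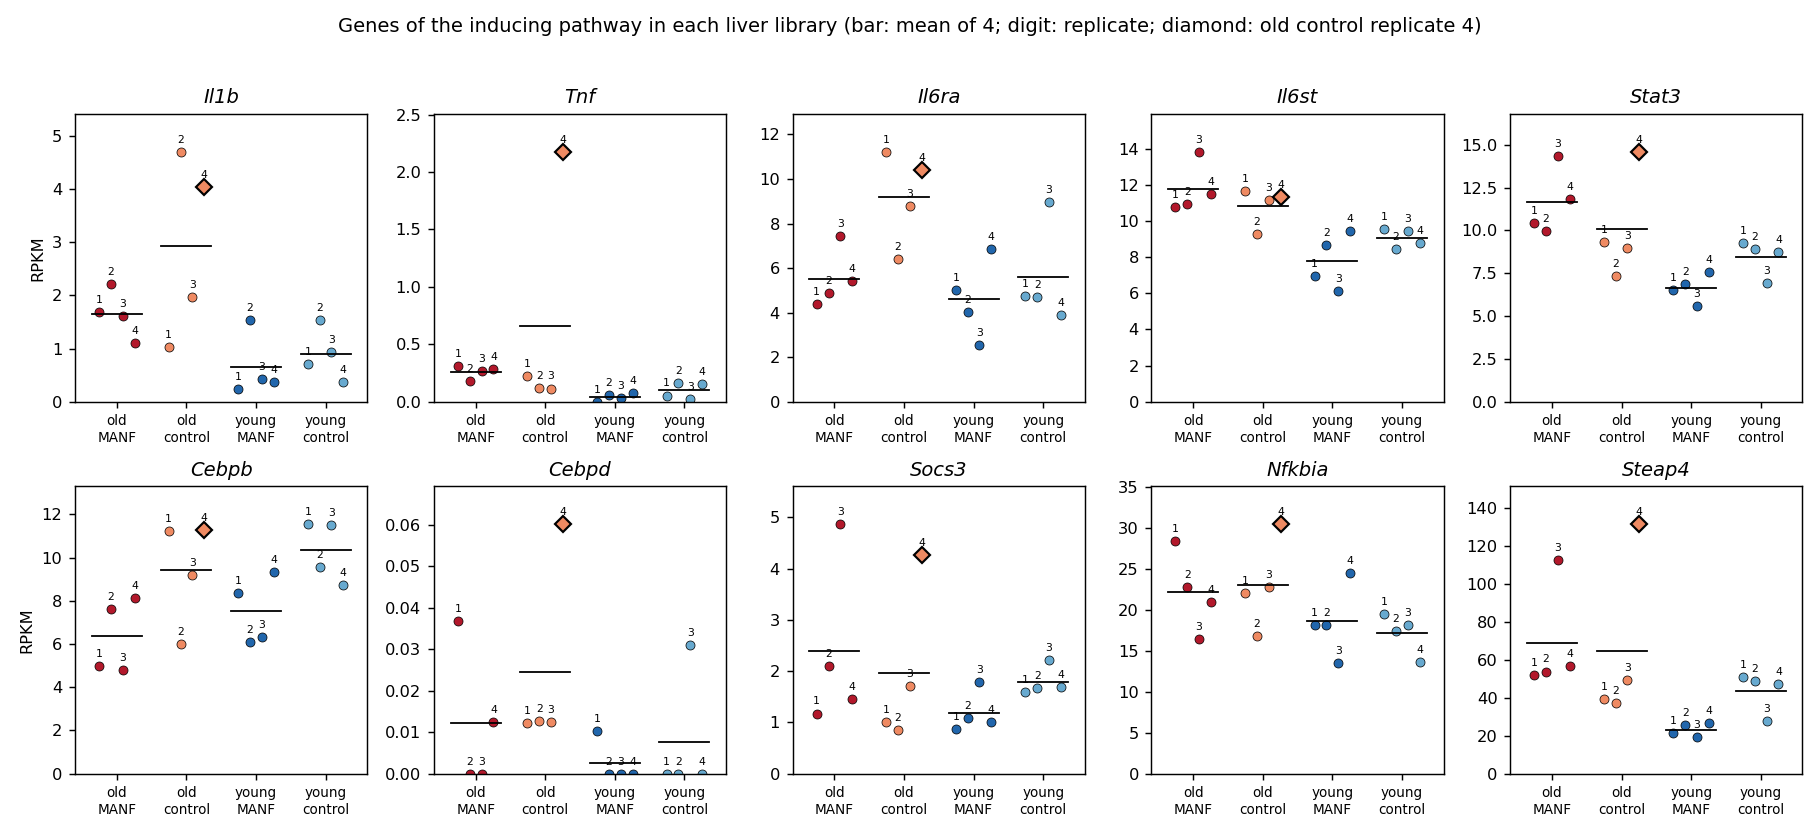
RPKM of ligand, receptor, factor and feedback genes and of the target Steap4 in each library, with points labelled by replicate, bars for means of 4 and a diamond for old control replicate 4. Socs3 and Steap4 are highest in old MANF replicate 3 and old control replicate 4, and Tnf is highest in old control replicate 4 (2.18 RPKM).

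Among other acute-phase genes, limma called 3 of 29 higher in old MANF than in young MANF livers (10.3%, against 5.85% of all tested genes), and 10 of 29 without old control replicate 4 (34.5%, against 15.7%). Steap4, an iron and copper reductase, averaged 68.9 ± 29.4 RPKM in old MANF and 23.3 ± 3.48 RPKM in young MANF livers (log2 1.48, adjusted p = 0.0260). The neutrophil chemokine Cxcl1 averaged 4.47 ± 0.913 RPKM in old MANF and 1.43 ± 0.330 RPKM in young MANF livers (log2 1.36, adjusted p = 0.0238), and the zinc transporter Slc39a14 changed by log2 0.66 (adjusted p = 0.0257). All 29 had a change above 0, with a median of 0.56, against 0.18 over all tested genes. In the other 3 comparisons between groups none of the 29 was called, and their median was 0.10 between old and young control livers, -0.19 between MANF and control in young livers and 0.09 between MANF and control in old livers. The first of these medians was -0.08 and the last 0.46 without old control replicate 4, with 1 gene called in old livers. None of the 16 genes that fall in the acute phase was called in any of the 4 comparisons with all libraries. Of the 6 tested carriers and receptors of the encoded proteins, limma called only the scavenger receptor Cd36, which was higher in old than in young livers with MANF (log2 1.45) and with the empty plasmid (log2 1.51).

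Markers of other cells moved with the members in part. The 13 neutrophil markers, of which Ly6g was at 0 in all libraries, summed to 25.0 RPKM in old control replicate 4 against 2.75 to 5.01 RPKM in the other old controls, and to 9.02 RPKM in old MANF replicate 3 against 5.19 to 13.6 RPKM in the other old MANF livers. Only 3 of these 13 markers passed the filter on low values. In old control replicate 4 most of the sum was S100a9 (10.6 RPKM), S100a8 (6.76 RPKM) and Csf3r (4.36 RPKM). By group the neutrophil sum was 5.19 to 13.6 RPKM in old MANF, 2.75 to 25.0 RPKM in old control, 1.82 to 3.59 RPKM in young MANF and 1.72 to 9.79 RPKM in young control livers. Markers of Kupffer cells and macrophages (12 of 12 detected) summed to 1145 RPKM in old control replicate 4 against 172 to 261 RPKM in the other old controls, and those of MHC class II cells (6 of 6 detected) to 1600 RPKM against 67.6 to 119 RPKM. In old MANF replicate 3 the corresponding sums were 328 RPKM, inside the range of its group, and 179 RPKM, against 198 to 298 RPKM in the other old MANF livers. Between groups, macrophage markers summed to 214 to 415 RPKM in old MANF, 172 to 1145 RPKM in old control, 53.0 to 172 RPKM in young MANF and 101 to 225 RPKM in young control livers. MHC class II markers summed to 179 to 298 RPKM in old MANF, 67.6 to 1600 RPKM in old control, 31.2 to 88.6 RPKM in young MANF and 44.9 to 143 RPKM in young control livers. The cholangiocyte list (6 of 6 detected) was high in both libraries with the most Orm2, nearly all of it through Spp1, which other cells also make. Its sum was 77.1 RPKM in old MANF replicate 3 (Spp1 alone 76.2 RPKM) against 23.9 to 33.2 RPKM in the other old MANF livers, and 67.7 RPKM in old control replicate 4 against 11.4 to 13.7 RPKM in the other old controls. In young mice it was 12.6 to 18.4 RPKM in MANF livers and 15.9 to 119 RPKM in control livers, lowest in replicate 3. Hepatocyte markers summed to 39287 RPKM in old MANF replicate 3 against 45404 to 47939 RPKM in the other old MANF livers, and to 31230 RPKM in old control replicate 4 against 41399 to 45142 RPKM in the other old controls. Most of this sum was Alb, at 27724 and 20091 RPKM in these libraries, the lowest of each group. In old MANF replicate 3 the other hepatocyte markers were also lowest, except Cyp2e1 and Serpina1a, which were highest. In old control replicate 4 only Ttr and Cyp2e1 of the others were lowest, and the rest lay inside the range. The adipocyte sum, with Lep at 0 in all libraries, was mostly Cidec, at 6.38 RPKM in old MANF replicate 3 and 5.08 RPKM in old control replicate 4, the lowest of each group, while Cfd was highest of its group in the first (2.01 RPKM) and inside the range in the second. T and B cell markers (7 of 7 detected) summed to 4.43 to 8.55 RPKM in old MANF, 3.21 to 26.6 RPKM in old control, 0.836 to 2.04 RPKM in young MANF and 1.153 to 5.79 RPKM in young control livers, so old MANF and young MANF livers did not overlap. The same held for macrophage and MHC class II markers and for the neutrophil sum. The part of these cells in the members' levels was not tested.

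The tested genes whose pattern over the 16 libraries was most like that of a member were found by Pearson r of log2(RPKM + 0.5) over genes averaging 1 RPKM or more. They are a description over libraries that share groups and a few extreme values, and carry no test. Members themselves were left out of this search. Over the 16 libraries another member lay closer by r to Saa1, Saa3, Orm2 and Lcn2 than any gene named here. For Lcn2 the leading gene was Steap4 (r = 0.94, Spearman rho = 0.83), and without old control replicate 4 it was the predicted gene Gm7694 (r = 0.92) with Steap4 next (r = 0.92). For Orm2 it was Prg4, which encodes the lubricant glycoprotein lubricin (r = 0.92), and without old control replicate 4 it was Cav2 (r = 0.93). For Itih4 it was Cav2 (r = 0.94) followed by C3 (r = 0.91), both highest in old MANF replicate 3. For Saa1 (r = 0.92) and Saa3 (r = 0.91) it was the fucosidase Fuca2 with all 16 libraries, and again without old control replicate 4 (r = 0.89 and 0.84).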

How the data were processed

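Total RNA had been extracted with Trizol from frozen liver and made into TruSeq Stranded mRNA libraries, per the labels' protocols. The authors deposited RPKM values. Among tools and builds, STAR 2.4.2a, HTSeq (version not given) and mm10 are listed, per the submitters' processing notes. The annotation, gene lengths and the handling of reads that align to several genes are not given in the sources used here. Whole reads were recovered from the RPKM steps, and 100% of values came out whole within 0.01 reads. Recovered reads in listed genes numbered 11.8 to 16.6 M per library, and the library size behind the RPKM was 18.3 to 26.1 M. Counting error matters most for Orm3.

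Tests covered the 10677 of 24010 genes that reached 0.5 RPKM in 4 or more libraries, as log2(RPKM + 0.5), with limma 3.58.1 in R 4.3.3, 1 mean per group, an intensity trend, two-sided tests, and Benjamini-Hochberg adjustment over all tested genes of each of 7 contrasts. On simulated data for old against young control livers (10549 genes), 56% of changes of log2 1 and 99% of changes of log2 2 were recovered, with 6 calls among unchanged genes. These shares are over genes drawn from the whole table and do not describe the variable members, whose SE reached 0.94 in a single comparison. Alternatives were pseudocounts of 0.1 and 1, no filter, median and quantile scaling, limma voom on the recovered reads, fewer groups, summed paralogs, a replicate block and left-out libraries. The members, the gene lists, the tests and the promoter motifs were chosen with earlier results of these data known. All members are named, other genes by list and smallest p, and similar genes by highest r. Genes picked after seeing values are marked. Correlations between members were planned but are not given, since Saa1 fell into 12 low and 4 high libraries. Promoters came from RefSeq (GRCm38.p6) and gene positions from GENCODE M21. Chi3l1, on a list, is not analysed here.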

Additional observations from a re-analysis of the deposited data

Results flagged for a closer look

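Each of the 10 genes was examined in each of the 4 groups, 40 sets of 4 libraries in all, for a library whose gap to its nearest neighbour takes up nearly the whole range of the group. For normally distributed values chance would mark about 1 in 20 such sets, and 14 were marked. The RPKM values need not follow that distribution, so the share is only a guide. Since the genes vary together, the 14 marks are not 14 separate events. Old control replicate 4 was marked as high for 9 genes, with Saa1 at 461 RPKM, Saa2 at 220 RPKM, Saa3 at 30.2 RPKM, Orm1 at 1756 RPKM, Orm2 at 378 RPKM, Orm3 at 44.96 RPKM, Lcn2 at 141 RPKM, Hp at 3367 RPKM and Itih4 at 580 RPKM. Old MANF replicate 3 was marked as high for 4 genes, with Orm1 at 1454 RPKM, Orm2 at 235 RPKM, Lcn2 at 37.2 RPKM and Itih4 at 931 RPKM, and for no serum amyloid A gene. Young control replicate 1 was marked as low for Orm3, at 0.911 RPKM. Young control replicate 3, low for Saa1, Saa2, Orm2 and Lcn2, was not marked for any gene on the RPKM scale.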

How the results depend on the processing

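Log2 changes were recomputed under alternatives for 49 pairs of a member and a contrast. Of these 1248 values, 1205 kept their direction and 43 reversed. The pairs covered all members between groups, but only Orm3 and Lcn2 for age averaged over plasmids. They covered Saa2, Saa4 and Orm3 for plasmid averaged over ages, and Saa1, Saa2, Orm2 and Lcn2 for the interaction. Reversals in other pairs are not counted. For age averaged over plasmids, Saa1 went from 0.34 to -0.15 without old control replicate 4, and Hp from 0.13 to -0.036. Between old and young control livers, leaving out both libraries that deviated most (replicate 4 of old control, replicate 3 of young MANF) gave -0.50 for Saa3, -0.23 for Orm1, -0.72 for Orm2, -0.37 for Lcn2 and -0.05 for Itih4. Quantile normalization turned Hp there to 0.065, and median scaling turned Itih4 to -0.011. Between old MANF and old control livers, leaving both out gave 0.56 for Saa1, 0.56 for Saa2, 0.17 for Saa3, 0.15 for Orm1, 0.84 for Orm2 and 0.26 for Hp. Lcn2 there was at -0.0038 with a pseudocount of 1, -0.0023 under median scaling and -0.013 by voom. Median scaling shifted the log2 changes of all genes by -0.22 between old and young MANF livers, 0.12 between MANF and control in young livers, -0.14 for the interaction and -0.15 for age averaged over plasmids.

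Runs without 1 library spanned 0 between old and young control livers for Saa3 (-0.50 to 0.54), Orm1 (-0.23 to 0.29), Orm2 (-0.72 to 0.80), Lcn2 (-0.37 to 1.29), Hp (-0.46 to 0.016) and Itih4 (-0.053 to 0.15), and between old and young MANF livers for Orm1 (-0.024 to 0.45). Between old MANF and old control livers they spanned 0 for Saa1 (-0.86 to 0.56), Saa2 (-0.88 to 0.56), Saa3 (-0.87 to 0.17), Orm1 (-0.51 to 0.15), Orm2 (-1.09 to 0.84), Lcn2 (-0.49 to 1.18), Hp (-0.22 to 0.26) and Itih4 (-0.061 to 0.34). For Saa1, Saa2, Saa3 and Orm1 in old livers, only the run without old control replicate 4 was above 0.

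Members called between old and young MANF livers (1) numbered 0 with a pseudocount of 1, no filter, median scaling, quantile normalization or voom, 5 with only the groups compared, 3 without both libraries, and 0 to 7 in runs without 1 library. Between old and young control livers (0) there was 1 without both libraries, and 0 to 1 without 1 library. Between old MANF and old control livers (0) there was 1, Saa4, under quantile normalization, voom or without both libraries, and 0 to 1 without 1 library. Averaged over plasmids (2), there was 1 with a pseudocount of 1, no filter, median scaling, quantile normalization or summed paralogs, 0 by voom, and 1 to 2 without 1 library. Averaged over ages (1), there were 2 without both libraries and 1 to 2 without 1 library. MANF against control in young livers and the interaction stayed at 0. The cause was not tested.

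Equal replicate numbers did not pair the libraries: 5 of 24 same-numbered pairs deviated together with r above 0.1 (-0.32 to 0.21, against -0.35 to 0.43 in other pairs). With the replicate block, members called were 1 by age in MANF livers and 0 in control livers, 0 by plasmid at each age, 0 for the interaction, and 2 and 1 for the averages, as without it. Genes called by age numbered 459 in MANF and 85 in control livers with the block (702 and 133 without), and genes called by plasmid 6 in old and 2 in young livers (11 and 2 without). Depth limits Orm3, at 5 to 770 reads, and in their lowest libraries also Lcn2 (34 reads), Orm2 (67 reads) and Saa3 (84 reads). In young MANF livers Lcn2 held 34 to 58 reads, and its 0.602 to 0.926 RPKM lay near the pseudocount of 0.5 RPKM.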
